A study of Rattus norvegicus with 6 samples.

Results

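The 5 transcripts described here are encoded by the mitochondrial genome and belong to the respiratory chain: mt-Nd1, mt-Nd4 and mt-Nd5 of complex I, mt-Cyb of complex III and mt-Co1 of complex IV. They were chosen by their Ensembl rat identifiers, by a rule that sets no threshold on a measured value, and make up 5 of the 28787 gene models in the deposited tables. RNA was sequenced from kidneys of male rats of 7 weeks of age, in 3 libraries of Dahl Salt Sensitive (Dahl SS) rats and 3 of Resp18 mutant rats. Dahl SS is an inbred rat strain that becomes hypertensive on a salty diet, and Resp18 is a gene expressed mainly in neuroendocrine cells. Both groups had been moved to a 2% salt diet at 6 weeks of age and were killed 1 week later, so salt itself is not a variable here. The labels do not describe the Resp18 allele or name the strain that carries it, and a difference between the groups may come from other variation between the animals as well as from the mutation. Whether each library stands for its own rat is not stated, and p-values here refer to the spread between libraries, which may be partly technical.

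Mitochondria keep a small genome of their own, which encodes a few core subunits of the respiratory chain together with ribosomal and transfer RNAs. Its strands are copied into long RNAs that hold many genes and are then cut apart, largely at the transfer RNAs, and the levels of the single messenger RNAs also depend on how long each one lasts. Complexes I, III and IV pass electrons from NADH to oxygen and pump protons across the inner membrane. The gradient drives ATP synthesis, on which the tubules of the kidney depend for sodium reabsorption. All 5 genes lie in the same orientation on the mitochondrial DNA.

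The tables give identifiers without gene names, and the names used here are those that came with the choice of identifiers. The whole-number model lengths implied by the FPKM values (fragments per kilobase of model per 1000000 counted reads) were the available check on them. They were 1830 bases for mt-Nd5 (ENSRNOG00000029971), 1545 for mt-Co1 (ENSRNOG00000034234) and 1378 for mt-Nd4 (ENSRNOG00000029707). mt-Cyb (ENSRNOG00000031766) had 1143 bases and mt-Nd1 (ENSRNOG00000030644) had 955. This order from longest to shortest is the known order of the coding lengths of these genes. The nuclear genome holds copies of stretches of mitochondrial DNA, and the sources used here do not say how reads that map to several places were counted, so some uncertainty remains on the level of each gene. For lack of names, the tissue was not checked against kidney cell type markers. The Resp18 transcript, the other mitochondrial genes and the nuclear genes of the respiratory chain were not analysed here for the same reason.

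Together the 5 transcripts took between 5.73% and 9.75% of all counted reads of a library. In Dahl SS kidneys the summed share was 5.73%, 8.26% and 6.83% in replicates 1 to 3, and in mutant kidneys it was 9.75%, 7.79% and 7.12%. Dahl SS replicate 1 was the lowest of the 6 libraries and mutant replicate 1 the highest, while Dahl SS replicate 2 lay above mutant replicates 2 and 3, so the groups overlapped. The means (± SD, n = 3) were 6.94% ± 1.27 for Dahl SS and 8.22% ± 1.37 for mutants. The difference was 1.28 percentage points, about the size of these SDs. Its two-sided exact permutation p was 0.4, where 0.1 is the smallest p that 3 against 3 can give. Single libraries decided its size. It was 0.677 percentage points without Dahl SS replicate 1, 0.514 without mutant replicate 1 and -0.0903 without both, while it was 1.94 without Dahl SS replicate 2. In bulk tissue, a difference in such a share could not be told apart from a difference in the make-up of the kidney's cells, in the number of mitochondria or in the RNA held by each.

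**Figure D1:**
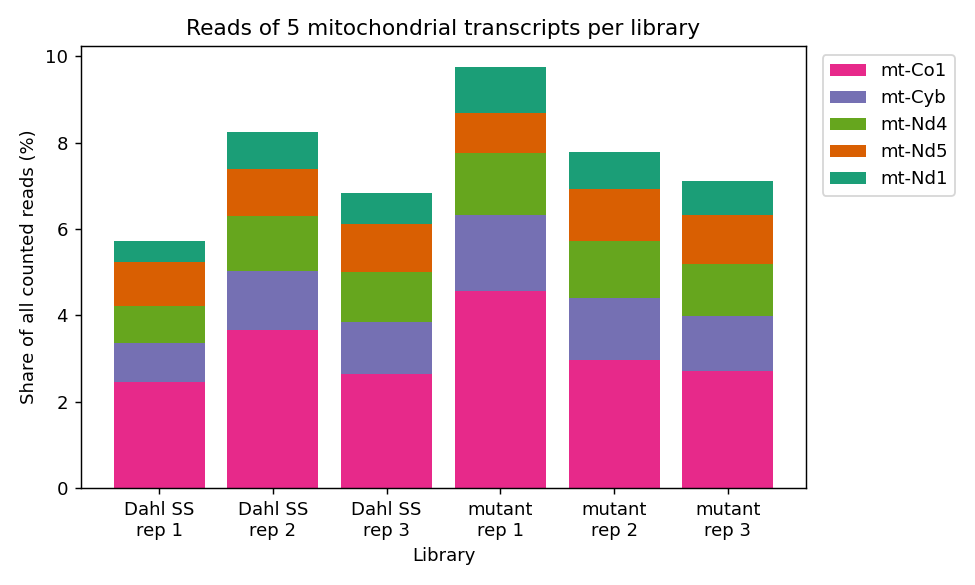
Stacked bars give the share of all counted reads (%) taken by each of the 5 transcripts in each of the 6 libraries. The stacks run from 5.73% in Dahl SS replicate 1 to 9.75% in mutant replicate 1, and the remaining 4 libraries lie between 6.83% and 8.26%.

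The libraries held 13427302 to 22854561 counted reads, and the counts of single members ranged from 107573 for mt-Nd1 in mutant replicate 3 to 1003613 for mt-Co1 in mutant replicate 1. Wilson 95% intervals on the share of a member in a library were therefore at most 0.00968 percentage points to either side, which covers counting error only. All 5 passed the low-count filter in a table of 16324 tested models. Dahl SS replicate 1 and mutant replicate 1, at the ends of the summed share, were the most deeply sequenced libraries, with 22854561 and 21958869 reads. Mutant replicate 2 came next with 20834064 reads, and its summed share was 7.79%. Dahl SS replicate 1 and mutant replicate 1 also lay at the ends of a trend with model length. The Spearman correlation of a library's log2 CPM deviation with length, across models and so not over independent replicates, was 0.37 in Dahl SS replicate 1 and -0.37 in mutant replicate 1, against -0.17 to 0.04 in the other libraries. The 10 most abundant models outside the 5 moved alike, at 5.76% of reads in Dahl SS replicate 1, 8.54% in mutant replicate 1 and 6.87% to 7.40% in the rest. These 10 models are not named here and may include other mitochondrial transcripts.

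Per unit of length, mt-Co1 was the most abundant of the 5 in every library. The mt-Co1 protein is the catalytic subunit of cytochrome c oxidase, the complex that hands electrons to oxygen. Its FPKM was 15909, 23764 and 17105 in Dahl SS replicates 1 to 3 and 29582, 19204 and 17598 in mutant replicates 1 to 3. It was also the most abundant of all 28787 models in every library, both by count and by FPKM. The FPKM of mt-Co1 was 1.54 to 1.99 times that of mt-Cyb and 2.81 to 5.83 times that of mt-Nd5 in the same library.

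mt-Cyb encodes cytochrome b, the mitochondrially encoded subunit of complex III, and stood second of the 5 in every library. Its FPKM was 7986, 11940 and 10605 in Dahl SS and 12494 and 11089 in mutant replicates 2 and 3, with 15438 in mutant replicate 1. The complex I subunits were lower. mt-Nd4, part of the proton-pumping membrane arm, ranged over the 6 libraries from 6212 to 10354 FPKM, and mt-Nd1, near the quinone site where the arms of the complex meet, from 5160 to 11124. These neighbours lay close together and were not tested against each other: mt-Nd4 was above mt-Nd1 in 5 of 6 libraries, at 0.931 to 1.20 times its level.

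mt-Nd5, another subunit of the membrane arm, was the lowest of the 5 per length in 5 libraries. Its FPKM was 5518, 5931 and 6077 in Dahl SS and 5071, 6691 and 6177 in mutant replicates 1 to 3. The order mt-Co1, mt-Cyb, mt-Nd4, mt-Nd1, mt-Nd5 was found in 4 of 6 libraries. Dahl SS replicate 1 had mt-Nd5 above mt-Nd1, and mutant replicate 1 had mt-Nd1 above mt-Nd4. By counts that are not divided by length, the same order held in 1 library, since the long mt-Nd5 then passed mt-Nd1 in 5 of 6.

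**Figure D2:**
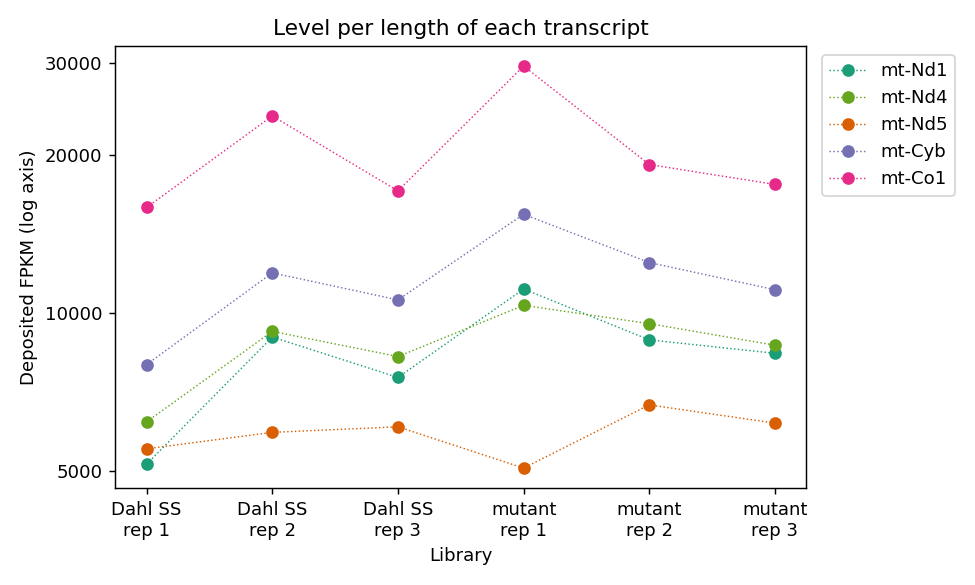
Points give the deposited FPKM of each transcript on a log axis in each of the 6 libraries, with dotted lines to guide the eye. mt-Co1 lies above mt-Cyb everywhere, mt-Nd4 and mt-Nd1 lie close together, and mt-Nd5 is at 5071 in mutant replicate 1, where the other 4 are at their highest.

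The series sets Resp18 mutant kidneys against Dahl SS kidneys on the same diet, and the question for these transcripts is whether their levels differed. None of the 5 passed edgeR's quasi-likelihood test at a false discovery rate (FDR) of 0.05, where 0.0123% of all tested models did. By DESeq2 none passed either, against 0.644% of all models. At an unadjusted p under 0.05 the count was 0 of 5 by edgeR, against 10.8% of all models, and 2 of 5 by DESeq2 (mt-Nd1 and mt-Cyb), against 9.82%. Groups overlapped in all 5, where 17.2% of all models had groups without overlap. The fitted log2 fold change, mutant over Dahl SS, was above 0 in all 5, with a median of 0.28, against 50.9% of all models above 0 and a median of 0.0051. The 5 come from one genome and the same libraries and are not independent of each other.

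The values of each library are given in CPM, counts per 1000000 reads of the TMM-scaled library. mt-Nd1 stood at 4835, 8711 and 7183 CPM in Dahl SS and 10979, 8500 and 7865 in mutant replicates 1 to 3. Its lowest library was Dahl SS replicate 1, its highest was mutant replicate 1, and the other 4 were mixed. The means were 6910 ± 1952 and 9115 ± 1646 CPM (SD, n = 3), with a log2 fold change of 0.40 ± 0.21 SE (edgeR adjusted p = 0.492). This was the largest fold change of the 5, at 1.32-fold with a 95% interval of 0.953 to 1.82.

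mt-Cyb followed the same course. It stood at 8958, 13814 and 12080 CPM in Dahl SS and 18238, 14281 and 12443 in mutants, and a single pair, Dahl SS replicate 2 against mutant replicate 3, made the groups overlap. The log2 fold change was 0.37 ± 0.18 SE (edgeR adjusted p = 0.481), or 1.29-fold with a 95% interval of 0.969 to 1.72. mt-Nd4 stood at 8400, 12885 and 11358 CPM in Dahl SS and 14746, 13169 and 11759 in mutants, with the same extremes and a log2 fold change of 0.28 ± 0.16 SE (edgeR adjusted p = 0.518).

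mt-Co1 spanned 1.96-fold over the libraries, with a different order among them. It stood at 24121, 37164 and 26338 CPM in Dahl SS and 47238, 29671 and 26692 in mutants. Mutant replicate 1 and Dahl SS replicate 2 were high, and the other 4 libraries lay between 24121 and 29671. The log2 fold change was 0.24 ± 0.23 SE (edgeR adjusted p = 0.691), and it was -0.05 without mutant replicate 1. The standard errors of mt-Co1 and mt-Nd1 exceeded those of 98.9% and 97.3% of the 563 models above 8 log2 CPM, whose median was 0.09.

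mt-Nd5 was the steadiest of the 5. It stood at 9910, 10986 and 11084 CPM in Dahl SS and 9591, 12245 and 11097 in mutants, a 1.28-fold range over all libraries, where mt-Nd1 spanned 2.27-fold and mt-Nd4 1.76-fold. Its lowest value was in mutant replicate 1, the library in which each of the other 4 was highest. The log2 fold change was 0.04 ± 0.11 SE (edgeR adjusted p = 0.897), and the 95% interval of the fold change ran from 0.866 to 1.22. For each of the 5, that interval stayed within 2-fold up or down, as it did for 13679 of all 16324 models.

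Leaving out Dahl SS replicate 1 and mutant replicate 1, a choice made after their values were seen, brought the log2 fold changes of mt-Nd1, mt-Nd4 and mt-Cyb from 0.40, 0.28 and 0.37 to 0.04, 0.04 and 0.05. That of mt-Co1 became -0.17 and that of mt-Nd5 0.08. In CPM, mt-Nd1, mt-Nd4, mt-Cyb and mt-Co1 were each lowest in Dahl SS replicate 1 and highest in mutant replicate 1. Leaving both out could therefore only lower their differences in mean CPM. Without Dahl SS replicate 1 alone the value of mt-Nd1 was 0.20, and without mutant replicate 1 alone it was 0.25. Without Dahl SS replicate 2 it was 0.61, with an edgeR adjusted p of 0.284, the lowest adjusted p of any member over 20 alternatives. The fitted length trend, at the length of mt-Nd1, amounted to -0.16 in Dahl SS replicate 1 and 0.12 in mutant replicate 1 on the log2 scale, where mt-Nd1 itself deviated by -0.69 and 0.50. With the trend of each library removed, the log2 fold change of mt-Nd1 was 0.31 (edgeR adjusted p = 0.447) and that of mt-Cyb 0.29 (edgeR adjusted p = 0.424).

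**Figure D3:**
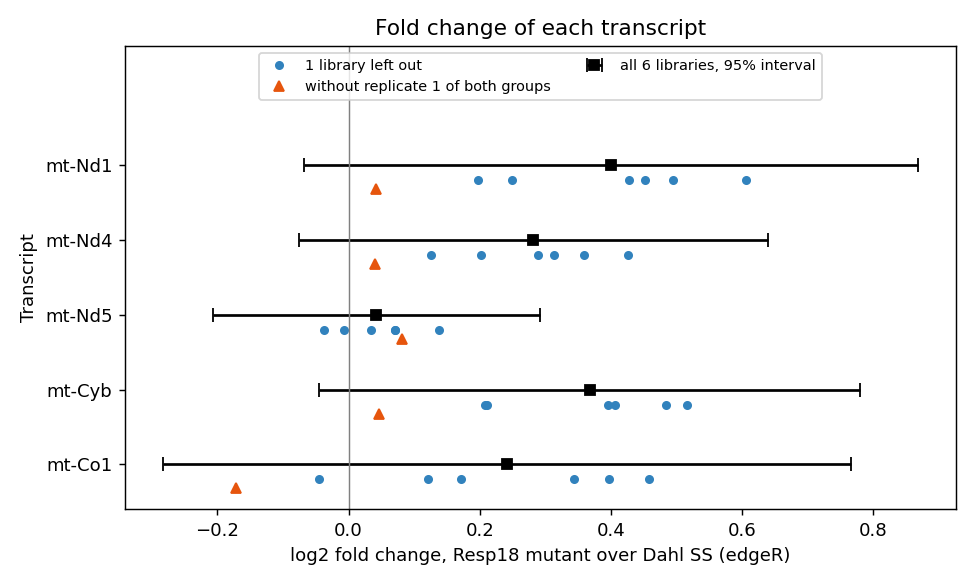
Squares give the log2 fold change of each transcript, Resp18 mutant over Dahl SS, from edgeR on all 6 libraries with 95% intervals; circles leave out 1 library each, and triangles leave out replicate 1 of both groups. Each interval includes 0, and the triangles lie between -0.17 and 0.08.

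Shares within the 5-transcript count do not depend on how libraries are scaled, and ask whether the members kept their proportions. They are parts of one sum, so the share of a member also moves when the counts of the others change. mt-Co1 made up 42.0% ± 2.98 of this count in Dahl SS kidneys and 41.1% ± 5.03 in mutant kidneys (exact permutation p = 0.8, SD, n = 3). The 3 complex I transcripts together made up 41.2%, 39.0% and 43.5% in Dahl SS and 35.0%, 43.6% and 44.0% in mutants. Mutant replicate 1 was the lowest of the 6.

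mt-Nd1 took 8.60%, 10.4% and 10.6% of the 5-transcript count in Dahl SS and 10.9%, 10.9% and 11.3% in mutants, without overlap between the groups. The difference was 1.16 percentage points (exact permutation p = 0.1, the smallest that 3 against 3 can give, adjusted p = 0.25 over the 5 shares), and 0.532 without Dahl SS replicate 1. mt-Cyb took 15.9%, 16.5% and 17.8% in Dahl SS and 18.1%, 18.3% and 17.8% in mutants, where the nearest libraries, Dahl SS replicate 3 and mutant replicate 3, stood at 17.75% and 17.81%. Its difference was 1.34 percentage points (exact permutation p = 0.1, adjusted p = 0.25 over the 5 shares). With FPKM in place of counts the groups overlapped for mt-Cyb (exact permutation p = 0.2) and did not for mt-Nd1 (exact permutation p = 0.1). The design cannot take either below 0.1, so neither difference passed a threshold of 0.05. mt-Nd1 and mt-Cyb are also the shortest of the 5, and the fitted length trend was largest for them. On the log2 scale it was -0.16 for mt-Nd1 and -0.13 for mt-Cyb in Dahl SS replicate 1, and 0.12 and 0.10 in mutant replicate 1. For mt-Nd5, the longest, it was -0.04 and 0.04. The part of the length trend in these shares was not tested.

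The share of mt-Nd5 varied 1.85-fold over the libraries, where that of mt-Co1 varied 1.23-fold, from 38.1% to 46.9%. In CPM the order was the reverse, with a range of 1.28-fold for mt-Nd5 and 1.96-fold for mt-Co1. The wider range of the mt-Nd5 share therefore does not mean that mt-Nd5 itself varied more. mt-Nd5 took 17.6%, 13.1% and 16.3% in Dahl SS and 9.52%, 15.7% and 15.9% in mutants (exact permutation p = 0.5), so that the groups overlapped. The ratio of mt-Co1 to mt-Nd5 counts, a measure chosen after these shares were seen, was 2.43, 3.38 and 2.38 in Dahl SS and 4.93, 2.42 and 2.41 in mutants. Of the 6 libraries, 4 lay between 2.38 and 2.43, and Dahl SS replicate 2 and mutant replicate 1 lay above them. The group means, 2.73 ± 0.565 and 3.25 ± 1.45 (SD, n = 3), differed by 0.520, less than either SD (exact permutation p = 0.7).

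**Figure D4:**
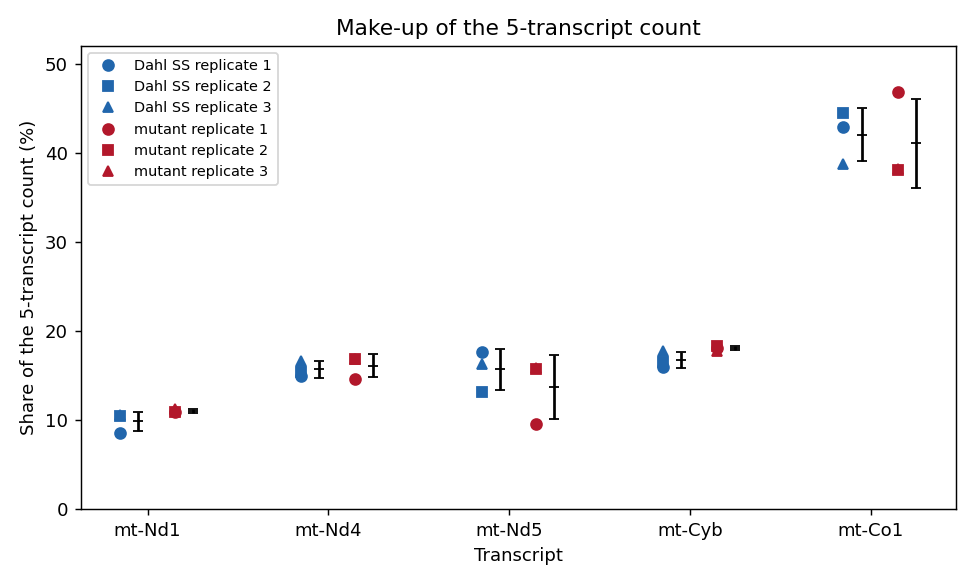
Points give the share of the 5-transcript count (%) taken by each transcript in each library, in blue for Dahl SS and red for Resp18 mutant, with the mean and SD of 3 libraries in black beside them. mt-Nd5 stands at 9.52% in mutant replicate 1, and the groups lie apart for mt-Nd1 and, by a narrow margin, for mt-Cyb.

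The profile of the members over the libraries was set beside that of 9959 models with a mean of at least 10 CPM, by the Pearson correlation of log2 CPM with the mean of the 5 members over the 6 libraries. Each of the 5 is itself part of that mean. As a description, mt-Nd1, mt-Cyb and mt-Nd4 correlated with it at 0.993, 0.992 and 0.989. mt-Co1 did so at 0.881 and mt-Nd5 at 0.073. The most alike models outside the 5 were ENSRNOG00000043377 (0.998), ENSRNOG00000006898 (0.997), ENSRNOG00000020075 (0.997) and ENSRNOG00000048109 (0.997), which the tables do not name.

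Their levels were far lower, at 32.1 to 215 FPKM, and their log2 ranges over the libraries were 0.42, 1.03, 0.73 and 0.88 in that order, against 0.79 for the mean of the members. Such likeness was common: 916 models (9.20%) correlated above 0.9 and 984 (9.89%) below -0.9. The former had a median length of 1124 bases and the latter of 3657, against 2263 for all 9959. All points share the same 6 libraries, and the extremes are again Dahl SS replicate 1 and mutant replicate 1. The part of the length trend in the members' profile was not tested beyond the correction given above.

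**Figure D5:**
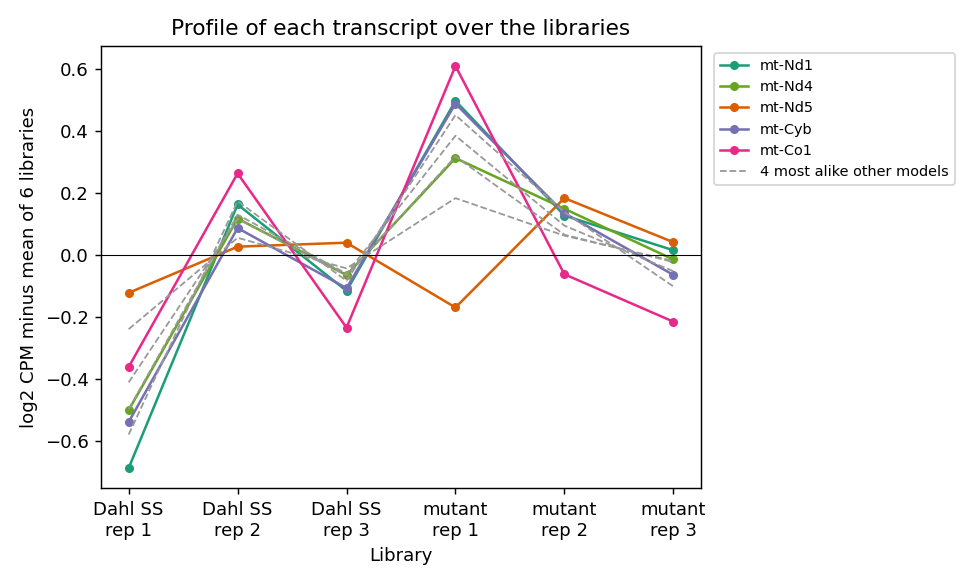
Lines give log2 CPM minus the mean of the 6 libraries for each of the 5 transcripts (coloured) and for the 4 most alike other models (dashed grey); lines only guide the eye between libraries. mt-Nd1 spans -0.69 to 0.50, and mt-Nd5 lies at -0.17 in mutant replicate 1, apart from the rest.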

How the data were processed

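Kidney RNA was measured in 3 Dahl SS and 3 Resp18 mutant libraries, made from 3 ug of total RNA per the labels' protocols. The authors deposited raw counts and FPKM for each gene model. Named without roles, per the submitters' processing notes, are HISAT2 2.1.0, HTSeq 0.6.1, CASAVA 1.8 and the build Rnor 5.0. Poly(A) selection and strand marking, which bear on mitochondrial RNA, are not described in the sources used here. The deposited FPKM equalled the counts scaled by library total and a whole-number length, and so held no separate measurement.

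Counts were fitted with edgeR 4.0.16 (R 4.3.3): filterByExpr (minimum count 10, minimum total 15), TMM scaling, a quasi-likelihood F test with group as the only term, and Benjamini-Hochberg adjustment over 16324 models at 0.05. SE is the log2 fold change over the square root of F. Shares were compared by exact two-sided permutation. Alternatives were DESeq2 1.42.0, limma-voom and limma 3.58.1 on log2(FPKM + 1) or log2(FPKM + 0.1), other scalings, filters and denominators, the replicate block and left-out libraries. The length trend was a loess fit (span 0.5) on log10 length. It was fitted to each model's log2 CPM (prior count 2) minus its mean over the 6 libraries. The reference table paired 0 Ensembl identifiers with symbols, so lists given by symbol were not used. Named genes were the 5 members and the 4 models with the most alike profile. The identifiers of the members, and the lists that were then not used, were set down with earlier results of these data known.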

Additional observations from a re-analysis of the deposited data

How the results depend on the processing

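None of the 5 members was called under any of 20 alternatives, counts of all called models being 2 by edgeR, 105 by DESeq2, 1 by limma-voom and by limma on log2 FPKM, 13 without Dahl SS replicate 1 and 22 without replicate 1 of both groups. mt-Nd1, mt-Nd4 and mt-Cyb kept a log2 fold change above 0 in all 20. With 1 library left out, that of mt-Co1 ranged from -0.0452 (without mutant replicate 1) to 0.458, and that of mt-Nd5 from -0.0377 (without mutant replicate 2) to 0.137, with -0.00763 when Dahl SS replicate 1 was left out. Without replicate 1 of both groups mt-Co1 was at -0.172. The difference in summed share was 1.07 to 1.50 percentage points with other denominators, 0.514 to 1.94 with 1 library left out, and -0.0903 without replicate 1 of both groups. With 1 library left out, the difference in share within the 5 ranged from -3.25 to 0.117 for mt-Nd5 and from -3.87 to 0.511 for mt-Co1. Without replicate 1 of both groups it was 1.09 for mt-Nd5. The difference in the mt-Co1 to mt-Nd5 ratio, 0.520, ranged from -0.317 (without mutant replicate 1) to 0.943 with 1 library left out and was -0.465 without replicate 1 of both groups. The order of levels held in 4 libraries by FPKM and in 1 by counts, since counts rise with length. The cause of the other changes was not tested.

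The deviations of libraries that share a replicate number correlated at -0.274, -0.144 and -0.00176, which gave no sign that the numbers pair the libraries. The replicate 1 libraries lay at opposite ends of the length trend, so these values cannot show that the libraries were unpaired. A replicate block left edgeR's count of called members at 0, with log2 fold changes of 0.42 for mt-Nd1, 0.30 for mt-Nd4, 0.04 for mt-Nd5, 0.37 for mt-Cyb and 0.22 for mt-Co1. The removal of the length trend and of replicate 1 of both groups, and the mt-Co1 to mt-Nd5 ratio, were chosen after seeing the data. The counting error of a member's share was at most 0.00968 percentage points, far below the spread between libraries.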
